A study of Mus musculus with 12 samples.

Results

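The interferon-stimulated genes were described in 12 mouse tumours: 38 genes, of which 27 are counted here as type I response genes (Isg15, Ifit1, Ifit2, Ifit3, Mx1, Mx2, Oas1a, Oas2, Oas3, Oasl1, Oasl2, Irf7, Irf9, Rsad2, Usp18, Stat2, Ifi44, Ifi35, Ifih1, Ddx58, Dhx58, Xaf1, Eif2ak2, Zbp1, Bst2, Rtp4 and Cmpk2) and 11 as type II response genes (Cxcl9, Cxcl10, Gbp2, Gbp3, Gbp4, Gbp5, Irf1, Irgm1, Igtp, Iigp1 and Ido1). They were chosen by name from the 54532 genes listed in the deposited count tables. The split follows textbook usage, and many of them respond to both kinds of interferon. A total of 37 of the 38 had enough counts to be tested. The exception was Ido1, which encodes a tryptophan-degrading enzyme and had 44 counts in all and between 0 and 0.819 CPM (counts scaled to the size of the library) in each tumour.

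All 12 tumours were labelled malignant peripheral nerve sheath tumours, grown in mice of strain C57B/6 and genotype label WT after an adenovirus delivered Cas9 against Nf1 and a second gene spelled Cdk2na in the labels and read here as Cdkn2a. Every group therefore carried the same targeting. The 4 vehicle tumours came from mice given the carrier by daily oral gavage, with a terminal harvest. The 4 regressing tumours came from mice given 100 mg/kg palbociclib, an inhibitor of the cell cycle kinases CDK4 and CDK6, and 1 mg/kg mirdametinib, an inhibitor of MEK, daily by gavage, and were harvested during regression. The 4 terminal combination tumours came from mice given the same drugs, with a terminal harvest. Age was not stated in the labels, and nothing in them ties the 4 samples of a group to different mice. The p-values below therefore rest on the spread of these samples, which may be partly technical and may not be a spread between mice.

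Libraries held 13194699 to 22639625 counts. Nf1 stood at 10.2 to 23.8 CPM and Cdkn2a at 5.08 to 393 CPM over the 12 tumours, which does not check the editing, since a cut gene can still be transcribed. The 10 markers of the Schwann lineage and nerve sheath tumours summed to 149.7 to 724 CPM, most of it from Nes, Ncam1 and Gap43, while Sox10 stood at 0 to 2.102 CPM and S100b at 0.143 to 10.4 CPM, and 7 collagen and mesenchymal markers summed to 13711 to 33359 CPM. One library stood apart. Regressing replicate 4 held 505 CPM summed over 10 T cell markers against 20.5 to 106 CPM in the other 11 tumours. Ranges, the median spread, the group differences of the 2 lists and the counts with Ptprc are given with and without it.

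Type I interferons (the alpha interferons, interferon beta and relatives) are released by cells that sense foreign or misplaced nucleic acid, and they signal through the receptor IFNAR and the kinases JAK1 and TYK2 to a complex that contains STAT2 and IRF9. Type II interferon (interferon gamma) is made mainly by T cells and natural killer cells and signals through IFNGR, JAK1 and JAK2. The type I complex binds the interferon-stimulated response element (ISRE) in promoters, and the type II pathway acts through the gamma-activated site (GAS). In tumours these genes are read as a trace of antiviral sensing, antigen presentation and attraction of T cells.

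Some promoters of the members carry these elements, and 4 promoters are printed to show the arrangement. Isg15 was taken for overlapping ISRE cores and Igtp for an ISRE and a GAS core side by side. Irf1 was taken for a GAS core alone and Cxcl9 for a promoter window with neither. Each runs 5′ to 3′ on the gene's own strand from 250 bases before to 50 bases after the start, from RefSeq on the build GRCm38.p6, in lower case with every ISRE core (GAAA and GAAA 2 bases apart, or on the other strand TTTC and TTTC 2 bases apart) and every GAS core (TTC and GAA 3 bases apart) in capitals.
Isg15, chr4:156200769-156201068, minus strand: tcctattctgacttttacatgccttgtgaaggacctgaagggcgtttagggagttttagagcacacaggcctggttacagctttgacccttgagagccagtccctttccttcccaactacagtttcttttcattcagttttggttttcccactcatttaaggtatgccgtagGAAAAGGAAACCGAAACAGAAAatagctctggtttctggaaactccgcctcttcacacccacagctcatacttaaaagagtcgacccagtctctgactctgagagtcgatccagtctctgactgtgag
Igtp, chr11:58199306-58199605, plus strand: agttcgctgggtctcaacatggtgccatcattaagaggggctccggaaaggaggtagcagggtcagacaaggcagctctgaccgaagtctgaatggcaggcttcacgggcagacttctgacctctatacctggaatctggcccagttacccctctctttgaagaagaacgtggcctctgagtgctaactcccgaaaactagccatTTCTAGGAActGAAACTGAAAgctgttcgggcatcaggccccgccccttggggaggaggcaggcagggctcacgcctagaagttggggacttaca
Irf1, chr11:53769764-53770063, plus strand: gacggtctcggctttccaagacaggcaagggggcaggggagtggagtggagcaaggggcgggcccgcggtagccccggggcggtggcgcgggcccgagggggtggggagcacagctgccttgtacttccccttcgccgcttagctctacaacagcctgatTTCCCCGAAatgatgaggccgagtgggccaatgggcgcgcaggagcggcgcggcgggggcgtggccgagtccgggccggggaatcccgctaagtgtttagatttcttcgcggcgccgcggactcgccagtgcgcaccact
Cxcl9, chr5:92328030-92328329, minus strand: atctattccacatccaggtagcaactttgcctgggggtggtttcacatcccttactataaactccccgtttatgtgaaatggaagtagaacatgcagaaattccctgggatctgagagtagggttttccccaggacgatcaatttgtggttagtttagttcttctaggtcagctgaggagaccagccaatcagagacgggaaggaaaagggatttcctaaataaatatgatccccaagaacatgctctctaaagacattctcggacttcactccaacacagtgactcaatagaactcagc
In Isg15 3 ISRE cores overlap, beginning 78 bases before the start. In Igtp the GAS core begins 45 bases and the ISRE core 34 bases before the start. The Irf1 GAS core begins 90 bases before the start of the first of its 2 listed promoters, and the other promoter held neither core.

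Of the 38 members, 28 had a promoter in the table, with 32 promoters between them. An ISRE core on either strand stood in 17 of these 32 promoters (53.1%), against 3.44% of all 32851 promoters of the same length in the table. A GAS core, whose pattern reads the same on both strands, stood in 8 of 32 (25%) against 8.30% of all. Both cores stood in 5 of 32 (15.6%) against 0.454%, and in Bst2 their letters overlapped. Neither core stood in 12 of 32, against 29143 of all 32851. Split by type, an ISRE core was found in 11 of 22 type I promoters and 6 of 10 type II promoters, and a GAS core in 5 of 22 and 3 of 10. These are letter matches within 300 bases and no measure of binding.

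Levels per length, as mean CPM per kilobase of exon over the 12 tumours, spanned a wide range among the members. Bst2, a membrane tether that holds back budding virus, was highest at 167 CPM per kilobase, followed by Isg15, a ubiquitin-like modifier, at 94.9. Ifit3 (64.8), a protein that binds viral RNA with its relatives, Gbp2 (47.7), a guanylate-binding GTPase, and Irf7 (46.8), the transcription factor that amplifies type I interferon, came next. At the other end stood Ido1 (0.111), Mx2 (0.779), Gbp4 (1.19) and Mx1 (2.40). The Mx proteins are antiviral GTPases, and most laboratory mouse strains carry a defective Mx1.

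The members differed far more between tumours of 1 group than other genes did. The SD of log2 CPM within groups had a median of 1.33 over the 27 type I members and 1.29 over the 10 tested type II members, against 0.43 over all 15650 genes tested (quartiles 0.28 and 0.77). All 37 stood above the median of all genes and 31 of them (23 type I and 8 type II) above the upper quartile. The least variable were Irf1 (SD 0.48) and Ifi35 (0.50), and the most variable was Cxcl9 (2.13), a chemokine that attracts activated T cells. Between the lowest and the highest of the 12 tumours the members spanned 3.07-fold (Irf1) to 171.5-fold (Cxcl9), with a median of 15.2-fold. Without regressing replicate 4 the largest range was 62.6-fold (Cxcl9) and the median 9.67-fold, and the median SD within groups was 1.14 for the type I members and 1.20 for the type II members, against 0.42 over all genes. The highest of the remaining 11 tumours was then vehicle replicate 1 for 25 members and regressing replicate 2 for 12.

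The same tumours were high or low for nearly all members. Regressing replicate 4 was the highest of the 12 tumours for 35 of 37 members, where 11.7% of all genes tested had their highest value. The exceptions were Eif2ak2, which encodes the double-stranded RNA kinase PKR and was highest in vehicle replicate 1, and Gbp2, highest in regressing replicate 2. The lowest value fell in terminal combination replicate 2 for 21 members, in regressing replicate 3 for 11, in vehicle replicate 2 for 4 and in terminal combination replicate 4 for 1. Within the vehicle group, replicate 1 was highest for 34 members and replicate 2 lowest for 33. Among the regressing tumours, replicate 4 was highest for 36 and replicate 3 lowest for all 37. Among the terminal combination tumours, replicate 3 was highest for 28 and replicate 2 lowest for 36. Within each group most members thus put the same tumour first and the same tumour last. No terminal combination tumour was the highest of the 12 for any member.

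**Figure D1:**
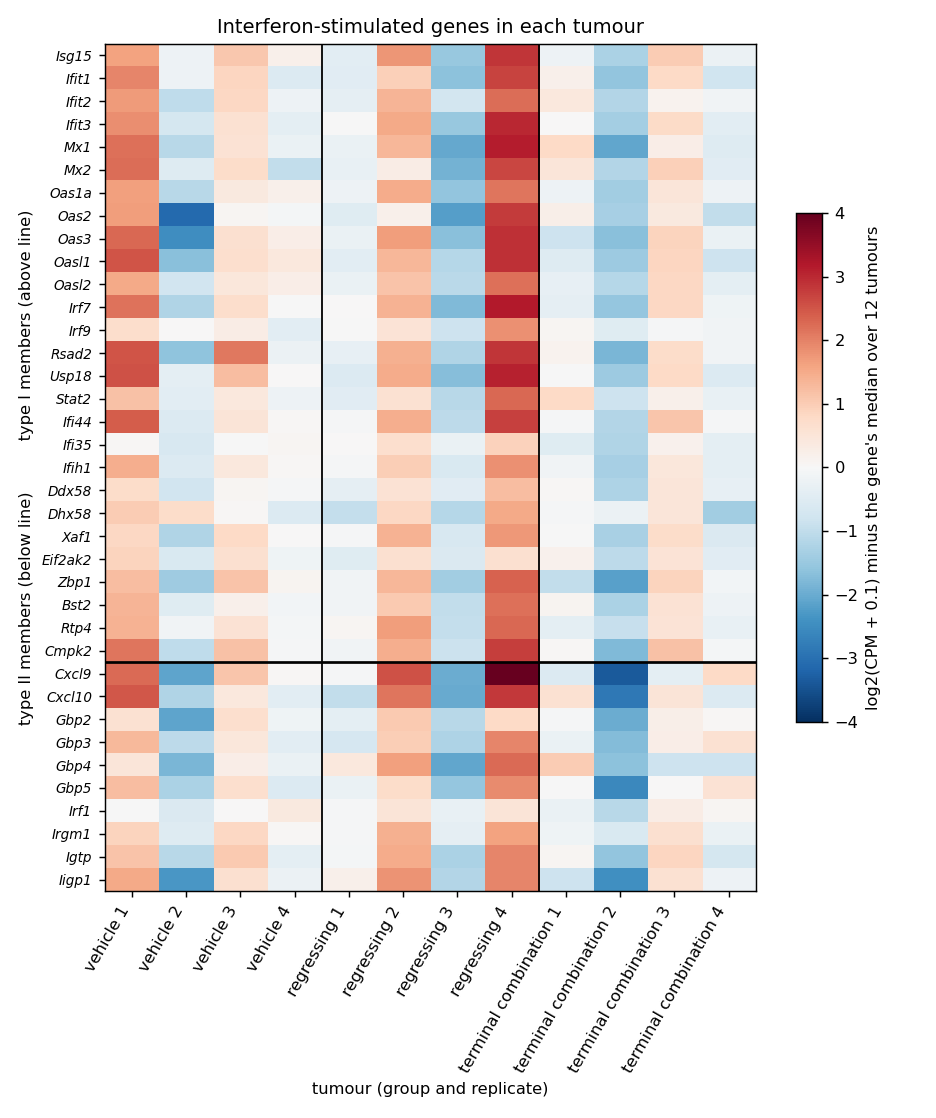
Each row is 1 of the 37 tested members and each column 1 tumour; colour is log2(CPM + 0.1) minus the median of that gene over the 12 tumours, with type I members above the horizontal line and type II members below it. Regressing replicate 4 is red in nearly every row, and terminal combination replicate 2 and regressing replicate 3 are blue in nearly every row.

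The 2 types were contrasted tumour by tumour with a level for each, the mean log2 CPM of its tested members. The type I level, in the order of replicates 1 to 4 used throughout, was 6.31, 3.83, 5.33 and 4.59 in the vehicle tumours, 4.42, 5.82, 3.49 and 7.02 in the regressing tumours and 4.65, 3.38, 5.32 and 4.29 in the terminal combination tumours. The type II level was 6.30, 3.71, 5.73 and 4.92, 4.92, 6.54, 3.81 and 7.09 and 5.07, 3.13, 5.33 and 5.07 in the same order of groups. Both levels put regressing replicate 4 first and terminal combination replicate 2 last, and the groups overlapped on both. As mean ± SD (n = 4), the type I level was 5.01 ± 1.06 in vehicle, 5.19 ± 1.55 in regressing and 4.41 ± 0.81 in terminal combination tumours. The type II level was 5.16 ± 1.13, 5.59 ± 1.504 and 4.65 ± 1.02.

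Type II minus type I, which sets the 2 lists against each other within a tumour, was -0.01, -0.12, 0.40 and 0.33 in the vehicle tumours, 0.50, 0.73, 0.32 and 0.07 in the regressing tumours and 0.42, -0.25, 0.02 and 0.78 in the terminal combination tumours. Its zero has no meaning, since the lists differ in gene length, so that tumours can be compared with each other but not with 0. The group means ± SD (n = 4) were 0.15 ± 0.25, 0.40 ± 0.28 and 0.24 ± 0.45. The groups overlapped, and the SD within groups was as large as the differences between them or larger. Terminal combination replicate 4 and regressing replicate 2 leaned most to the type II list and terminal combination replicate 2 most to the type I list. With the median over members in place of the mean, vehicle replicate 1 went from -0.01 to 0.38, regressing replicate 4 from 0.07 to 0.46 and terminal combination replicate 3 from 0.02 to 0.50, so the order of single tumours on this contrast depends on the summary used.

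**Figure D2:**
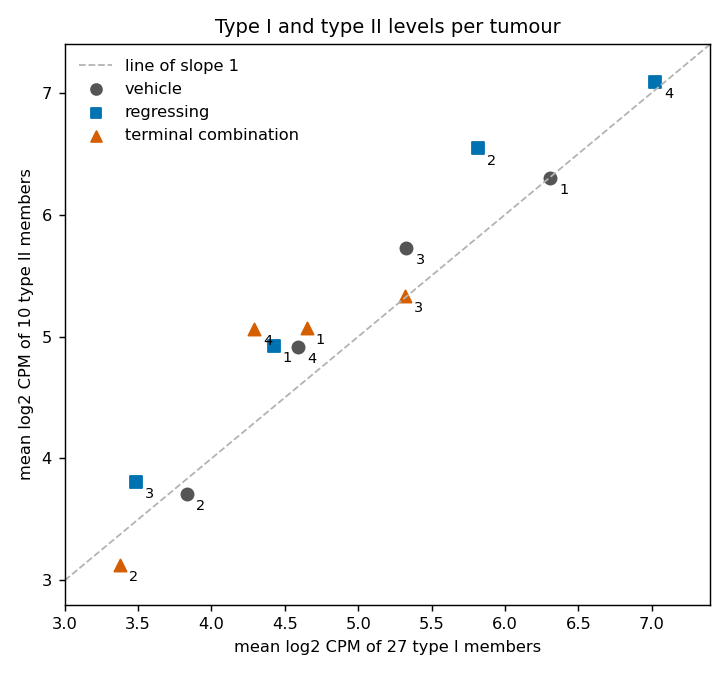
Each point is 1 tumour, numbered by replicate; the axes are the mean log2 CPM of the 27 type I and of the 10 tested type II members, and the dashed line has slope 1. The points lie along the line from terminal combination replicate 2 (3.38 and 3.13) to regressing replicate 4 (7.02 and 7.09), with the 3 groups mixed.

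Across the 12 tumours the levels of the 2 types had a Pearson r of 0.96, and 0.95 without regressing replicate 4. Over pairs of genes, the median r was 0.92 for 351 pairs of type I members, 0.89 for 45 pairs of type II members and 0.89 for 270 pairs of 1 member of each type. No pair had a negative r, and the lowest, 0.27, was between a type I and a type II member. With values centred on the group means the 3 medians were 0.93, 0.88 and 0.89. These values describe genes measured in the same libraries and carry no test.

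The type I effector genes followed this order. Isg15 stood at 113, 32.5, 79.5 and 42.6 CPM (vehicle), 27.5, 126, 13.04 and 271 CPM (regressing) and 32.5, 15.5, 75.4 and 31.8 CPM (terminal combination). Vehicle replicates 1 and 3 thus exceeded all 4 terminal combination tumours, and regressing replicates 1 and 3 lay below all 4 vehicle tumours. Ifit1, an RNA-binding antiviral protein, stood at 131, 28.9, 61.6 and 23.1 CPM (vehicle), 24.8, 65.1, 10.7 and 219 CPM (regressing) and 39.2, 11.3, 58.03 and 19.4 CPM (terminal combination). Ifit3 had 219, 36.7, 91.2 and 46.04 CPM (vehicle), 59.2, 172, 21.03 and 484 CPM (regressing) and 60.3, 22.99, 101 and 44.9 CPM (terminal combination). Both had their highest value in regressing replicate 4 and their lowest in regressing replicate 3, so that the regressing group spanned the whole range.

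Rsad2, which encodes the antiviral enzyme viperin, stood at 96.2, 5.43, 73.4 and 14.4 CPM (vehicle), 13.6, 45.9, 7.36 and 124 CPM (regressing) and 18.8, 4.71, 28.3 and 15.2 CPM (terminal combination). Oasl1, an RNA-binding relative of the oligoadenylate synthetases that holds back Irf7 translation, had 76.5, 4.14, 21.2 and 17.97 CPM (vehicle), 9.81, 33.4, 5.94 and 100.4 CPM (regressing) and 9.32, 4.76, 24.2 and 7.42 CPM (terminal combination). In both genes vehicle replicate 1 and regressing replicate 4 were the highest, and vehicle replicate 2 was the lowest or next to the lowest. The RNA sensor gene Ifih1, which encodes MDA5, had 93.6, 23.2, 45.1 and 35.5 CPM (vehicle), 32.6, 67.1, 22.4 and 120.5 CPM (regressing) and 31.2, 13.5, 46.8 and 25.9 CPM (terminal combination). Usp18, which removes Isg15 from proteins and damps signalling at IFNAR, had 93.8, 12.1, 37.5 and 16.1 CPM (vehicle), 10.96, 45.2, 4.79 and 134 CPM (regressing) and 15.9, 5.78, 27.6 and 11.01 CPM (terminal combination). Ifi35, a cytoplasmic interferon-induced protein, varied little and stood at 52.2, 32.6, 50.2 and 53.6 CPM (vehicle), 50.8, 80.01, 42.1 and 96.3 CPM (regressing) and 35.9, 21.9, 56.7 and 38.7 CPM (terminal combination). Its terminal combination tumours ranged from below every other tumour to above all 4 vehicle tumours. Rtp4, a chaperone for membrane receptors that also damps interferon signalling, had 62.4, 21.6, 35.7 and 22.5 CPM (vehicle), 24.98, 75.4, 12.2 and 116 CPM (regressing) and 17.9, 12.4, 34.95 and 19.1 CPM (terminal combination).

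The other type I members are given as the lowest, median and highest CPM of the 12 tumours. The oligoadenylate synthetases, which make the second messenger of RNase L in response to double-stranded RNA, were 7.14, 21.8 and 95.6 for Oas1a, 1.001, 9.496 and 66.2 for Oas2 and 2.43, 14.4 and 108 for Oas3, and their relative Oasl2 was 30.6, 68.8 and 311. Oas2 spanned 66.2-fold, the widest range among the type I members, and was lowest in vehicle replicate 2, and it spanned 30.6-fold without regressing replicate 4. Among the antiviral effectors, Ifit2 was 15.4, 35.05 and 166, Mx1 1.01, 4.63 and 40.96, Mx2 0.355, 1.62 and 10.6 and Bst2 43.6, 105 and 483. All 4 were highest in regressing replicate 4. The RNA sensor genes Ddx58, which encodes RIG-I, and Dhx58, which encodes LGP2, were 29.4, 68.7 and 163 and 10.4, 27.5 and 79.2, and the kinase gene Eif2ak2 was 16.98, 35.5 and 65.3. Eif2ak2 spanned 3.85-fold, the narrowest range of the type I list. Zbp1, a sensor of Z-form nucleic acid that can start cell death, was 7.68, 35.2 and 179, and Xaf1, linked to cell death, was 11.97, 29.6 and 97.9. Cmpk2, a mitochondrial nucleotide kinase next to Rsad2 in the genome, was 4.17, 14.3 and 98.3, and Ifi44 was 7.27, 16.5 and 110.4. Most of these genes had their lowest value in terminal combination replicate 2 and their highest in regressing replicate 4.

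Among the transcription factors, Irf7 stood at 392, 37.9, 141 and 86.99 CPM (vehicle), 87.2, 228, 25.8 and 788 CPM (regressing) and 67.2, 29.8, 156 and 78.1 CPM (terminal combination). Stat2, the type I signal transducer, had 68.6, 22.5, 40.2 and 26.3 CPM (vehicle), 22.3, 45.9, 14.02 and 148 CPM (regressing) and 52.3, 16.98, 34.9 and 24.6 CPM (terminal combination). Irf9, which gives the type I complex its DNA binding, had 68.7, 42.7, 51.8 and 30.9 CPM (vehicle), 41.03, 61.4, 23.7 and 149.8 CPM (regressing) and 43.97, 29.8, 40.6 and 38.2 CPM (terminal combination). Irf7 thus spanned 30.5-fold between tumours, Stat2 10.5-fold and Irf9 6.31-fold, and without regressing replicate 4 they spanned 15.2-fold, 4.89-fold and 2.90-fold. Irf1, a factor induced early by interferon gamma, stood at 95.2, 65.4, 98.3 and 127 CPM (vehicle), 93.3, 138, 77.9 and 139 CPM (regressing) and 80, 45.3, 119 and 102 CPM (terminal combination) and was the steadiest member. Reads of Irf9 and of the overlapping gene Rnf31 on the same strand may not be separable, and the same holds for Igtp with Irgm2 and for Gbp4 with Gbp8 and Gbp9. Irf7, Rtp4 and Cxcl10 overlap Phrf1, Masp1 and Art3 on the other strand, and Ifit3 and Oas1a have near-identical copies in Ifit3b and Oas1g, so their values are uncertain to the extent that the counting, which is not given in the sources used here, shared reads.

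Of the type II members, Cxcl9 stood at 83.2, 3.93, 37.3 and 17.9 CPM (vehicle), 16.8, 101, 4.26 and 276 CPM (regressing) and 11.7, 1.61, 13.2 and 30.1 CPM (terminal combination). Cxcl10, a second ligand of the T cell receptor CXCR3 and induced by both kinds of interferon, had 152, 11.7, 36.6 and 20.2 CPM (vehicle), 13.8, 121, 6.61 and 193 CPM (regressing) and 41.7, 3.63, 39.01 and 18.5 CPM (terminal combination). Cxcl9 spanned 171.5-fold and Cxcl10 53.1-fold, the 2 widest ranges among the type II members, and 62.6-fold and 41.7-fold without regressing replicate 4. Gbp2 stood at 174, 26.4, 181 and 101 CPM (vehicle), 86.8, 233, 52.5 and 198 CPM (regressing) and 111, 28.8, 134 and 116 CPM (terminal combination). Gbp4, of the same GTPase family, had 8.98, 1.72, 7.68 and 5.25 CPM (vehicle), 8.54, 20.2, 1.42 and 31.2 CPM (regressing) and 12.9, 1.97, 3.52 and 3.54 CPM (terminal combination). Irgm1, an immunity-related GTPase that regulates its relatives on membranes, had 138, 52.8, 134 and 77.4 CPM (vehicle), 72.6, 201, 58.8 and 231 CPM (regressing) and 66.2, 48.9, 118 and 61.8 CPM (terminal combination). Iigp1, an effector GTPase of that family, had 104, 7.22, 57.1 and 31.4 CPM (vehicle), 42.5, 129, 16.3 and 140.3 CPM (regressing) and 20.6, 6.55, 55.3 and 31.4 CPM (terminal combination). The lowest, median and highest CPM of the 12 tumours were 13.7, 46.6 and 179 for Gbp3, 2.32, 14.3 and 53.8 for Gbp5 and 13.3, 39.8 and 153 for Igtp, all highest in regressing replicate 4 and lowest in terminal combination replicate 2. For Gbp2, terminal combination replicate 2 lay far below the rest of its group, while for Gbp4 replicate 1 was the highest terminal combination tumour by more than 3-fold.

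The first comparison sets treated tumours harvested during regression beside vehicle tumours with a terminal harvest. Drug and harvest stage differ together here and cannot be told apart. Regressing tumours had higher fitted values than vehicle tumours for 26 of 27 type I members and all 10 tested type II members, where 48.5% of all genes were higher, but the size was small beside the spread. The median log2 difference was 0.47 for the type I members and 0.51 for the type II members, against -0.02 over all genes. No member passed the test: edgeR's quasi-likelihood test with Benjamini-Hochberg adjustment over 15650 genes called 0 members and 0% of all genes, and none of the 37 members had an unadjusted p under 0.05, which 12.7% of all genes had. DESeq2 called 3.05% of all genes (477) and 0 members, and limma-voom called 0 genes.

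Among the named type I members the difference was 0.51 (SE 0.32, adjusted p = 0.519) for Ifi35, 0.68 (SE 0.62, adjusted p = 0.664) for Rtp4, 0.51 (SE 0.46, adjusted p = 0.666) for Irf9 and 0.90 (SE 0.85, adjusted p = 0.678) for Ifit3 by edgeR. In the type II list it was 1.37 (SE 0.84, adjusted p = 0.511) for Gbp4, 1.48 (SE 1.18, adjusted p = 0.62) for Cxcl9 and 0.48 (SE 0.48, adjusted p = 0.694) for Irgm1. As mean ± SD (n = 4) Cxcl9 was 99.3 ± 125 CPM in the regressing group and 35.6 ± 34.6 CPM in the vehicle group, with an SD in the regressing group above its mean. Every member had overlapping values in the 2 groups, where 7.64% of all genes did not overlap. The direction changed with the libraries kept and with a covariate. Without regressing replicate 4, 24 of 27 type I members were lower in regressing tumours, with a median of -0.37, and the type II median was 0.07, with 6 of 10 higher. Without vehicle replicate 1 the medians were 1.11 and 0.96. Without both, an alternative chosen after seeing the data, 19 of 27 type I and all 10 type II members were higher, and with a muscle score as covariate and all libraries kept 18 of 27 type I members were lower and 8 of 10 type II members higher.

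The second comparison sets terminal combination tumours beside vehicle tumours, both with a terminal harvest. Age was not stated, so it is not known that the 2 groups were harvested at the same time. All 27 type I and all 10 tested type II members had lower fitted values in terminal combination tumours, where 49.6% of all genes were lower. The medians were -0.78 and -0.46, against 0.00 over all genes. No member was called by edgeR's quasi-likelihood test, which called 0% of all genes, and 0 of 37 members had an unadjusted p under 0.05, which 5.94% of all genes had. DESeq2 called 0 members and 0.0895% of all genes (14), and limma-voom called 0 genes.

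The smallest p-values among the type I members were those of Rsad2 at -1.50 (SE 0.98, adjusted p = 0.866), Usp18 at -1.40 (SE 0.95, adjusted p = 0.874), Oasl1 at -1.39 (SE 0.97, adjusted p = 0.876) and Ifih1 at -0.75 (SE 0.57, adjusted p = 0.886) by edgeR. Those of the type II list were Cxcl9 at -1.33 (SE 1.18, adjusted p = 0.907), Cxcl10 at -1.10 (SE 1.09, adjusted p = 0.916) and Iigp1 at -0.81 (SE 0.84, adjusted p = 0.916). As mean ± SD (n = 4) Rsad2 was 16.7 ± 9.73 CPM in terminal combination and 47.4 ± 44.4 CPM in vehicle tumours. No member had groups that did not overlap, against 2.5% of all genes. With 1 tumour left out at a time, the difference shrank most without vehicle replicate 1. The medians were then -0.14 for the type I and -0.12 for the type II members, and 7 of 27 and 4 of 10 were higher in terminal combination tumours. Without terminal combination replicate 2 the medians were -0.52 and -0.18, and 1 of 27 and 2 of 10 were higher.

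The third comparison holds the drugs and doses constant and sets terminal against regressing tumours. Time on the drugs may differ with the harvest stage and cannot be told apart from it. All 27 type I and all 10 tested type II members were lower in terminal combination tumours, where 49.2% of all genes were lower, and the medians were the largest of the 3 comparisons at -1.26 and -0.99, against 0.01 over all genes. This comparison shares its samples with both of the others. By edgeR's quasi-likelihood test 0 members and 0% of all genes were called. At an unadjusted p under 0.05 there were 3 of 37 members (Ifi35, Rtp4 and Cxcl9), beside 7.02% of all genes, a share near the background. DESeq2 called 0 members and 0.326% of all genes (51) and had 5 members at an unadjusted p under 0.05, beside 8.87% of all genes. Limma-voom called 0 genes and had 1 such member, beside 5.46% of all genes.

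Ifi35 differed by -0.81 (SE 0.32, unadjusted p = 0.027, adjusted p = 0.692), Rtp4 by -1.43 (SE 0.63, unadjusted p = 0.0426, adjusted p = 0.707) and Cxcl9 by -2.81 (SE 1.242, unadjusted p = 0.0438, adjusted p = 0.707) by edgeR. Ifit3 differed by -1.68 (SE 0.87, adjusted p = 0.732) and Irf7 by -1.77 (SE 0.96, adjusted p = 0.739) in the same test. For Irgm1 the difference was -0.93 (SE 0.48, adjusted p = 0.727) and for Iigp1 -1.52 (SE 0.85, adjusted p = 0.742). As mean ± SD (n = 4) Cxcl9 was 14.2 ± 11.8 CPM in terminal combination and 99.3 ± 125 CPM in regressing tumours. The groups overlapped for every member, where 3.9% of all genes did not overlap. Without regressing replicate 4 the medians were -0.41 and -0.56, 3 type I members were higher in terminal combination tumours and no member had an unadjusted p under 0.05. Without regressing replicate 3, the lowest of its group, 16 of 37 members did, beside 8.84% of all genes. A test of any difference among the 3 groups (edgeR quasi-likelihood F test) called 0% of all genes and 0 members, and 0 of 37 members had an unadjusted p under 0.05, beside 9.46% of all genes.

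**Figure D3:**
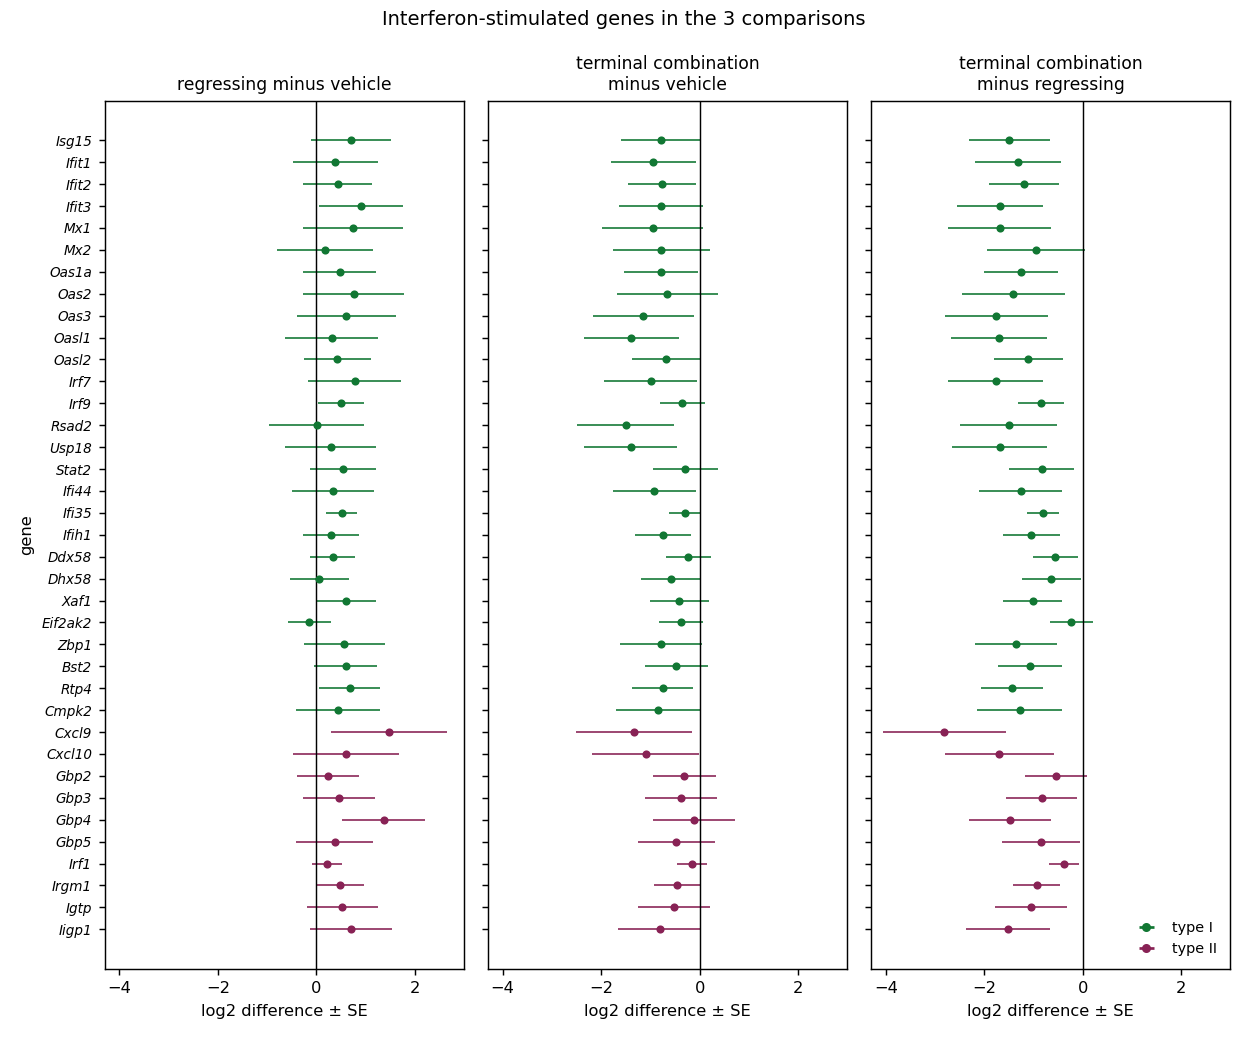
Points are the log2 differences of the 37 tested members from edgeR and bars are their standard errors, in the 3 comparisons, with type I members in green and type II members in purple. Nearly all points lie right of 0 in regressing minus vehicle and all lie left of 0 in the other 2 panels, and the bars are of the same size as the differences.

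The ligands were almost without reads. Of 21 listed interferon genes, 16 had no count in any library, for which 3 counts set an upper limit of 0.128 to 0.231 CPM per library. Ifnb1, the gene of interferon beta, had 8 counts in all, at 0.214 CPM in vehicle replicate 1, 0.0508 in vehicle replicate 3 and 0.116 in regressing replicate 2, and none elsewhere. Ifnb1 lies on chromosome 4, 752 kb from the targeted Cdkn2a, with the alpha interferon genes between them. Ifng, the type II ligand, had 29 counts and stood at 0, 0, 0.152 and 0 CPM (vehicle), 0.127, 0.755, 0.0444 and 0.386 CPM (regressing) and 0, 0, 0.0489 and 0.228 CPM (terminal combination). In regressing replicate 2 Ifng had 13 counts, above that limit. In every other library it had at most 5 counts, and each other ligand at most 6 in any library. Some of these values stood above that limit. Ifng in regressing replicate 4 was at 0.386 CPM (limit 0.231). The type I interferon gene Ifnz in terminal combination replicate 2 was at 0.357 CPM (limit 0.179). All of them rest on a few reads. No ligand had enough counts for the test between groups.

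The receptors and the kinases Tyk2 and Jak2 varied less than most members, whereas the kinase Jak1, described below, had a within-group SD of 1.39. Ifnar1 stood at 76.9 to 119 CPM, Ifnar2 at 22.5 to 49.5 CPM and Ifngr2 at 69.3 to 184 CPM. Ifngr1, the ligand-binding chain of the interferon gamma receptor, was the widest at 67.8 to 422 CPM, with its highest value in terminal combination replicate 1. Over the 5 tested receptor genes the median SD within groups was 0.39, under the 0.43 of all genes. Tyk2 (24.2 to 48.9 CPM) and Jak2 (30.9 to 57.1 CPM) were steady too.

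No gene of the other pathway lists passed the test: edgeR's quasi-likelihood test called 0 of them in any of the 3 comparisons. In the third comparison, where 7.02% of all genes had an unadjusted p under 0.05 and 49.2% were lower, 2 of 15 tested sensing genes had such a p, namely Myd88 at -0.37 (SE 0.16, adjusted p = 0.707), an adaptor of Toll-like receptors, and Irf8 at -0.94 (SE 0.42, adjusted p = 0.707), a factor of myeloid and B cells. Of 9 tested negative regulators 1 had, Rnaseh2b at -0.44 (SE 0.20, adjusted p = 0.707), a subunit of RNase H2. Socs1, which blocks JAK activity, was -0.21 (SE 0.26, adjusted p = 0.879) there by edgeR. Of 47 tested other interferon-inducible genes 46 were lower and 8 had an unadjusted p under 0.05. The 4 with the smallest p by edgeR were Ifi47 at -1.26 (SE 0.44, adjusted p = 0.692), Psmb8 at -1.28 (SE 0.46, adjusted p = 0.692), Psmb9 at -1.38 (SE 0.51, adjusted p = 0.692) and Trim30a at -1.61 (SE 0.60, adjusted p = 0.692); Psmb8 and Psmb9 are subunits of the immunoproteasome, which trims peptides for display to T cells.

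Jak1, the kinase shared by both receptors, was at 6012 CPM in vehicle replicate 3 and at 195.5 to 277 CPM in the other 11 tumours, 28.4 times their median, and took 0.647% of that library's reads. Over all tested genes, 115 were above 10 times the median of the other tumours in this library, a number that ran from 50 to 221 over the 12 tumours, and 11 of the 115 lay within 4 Mb of Jak1. Neighbours on chromosome 4 were high in the same tumour. Of the 20 tested genes from Nfia, which starts 3.38 Mb before Jak1, to Pde4b, which starts 0.935 Mb after it, 19 were above every other tumour, by 2.63-fold to 234-fold over the median of the others. Examples, chosen after their values were seen, are Raver2 at 672 CPM against a highest of 5.86 elsewhere, Ak4 at 1320 against 17.4 and Pgm1 at 3896 against 255. None of the 9 tested genes beyond Pde4b within 4 Mb of Jak1 was above every other tumour. The interferon-stimulated genes of this tumour were at neither end of their range, with a median rank among the 12 tumours, counted from the highest, of 5 over the type I and 4 over the type II members. What raised this stretch was not tested.

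**Figure D4:**
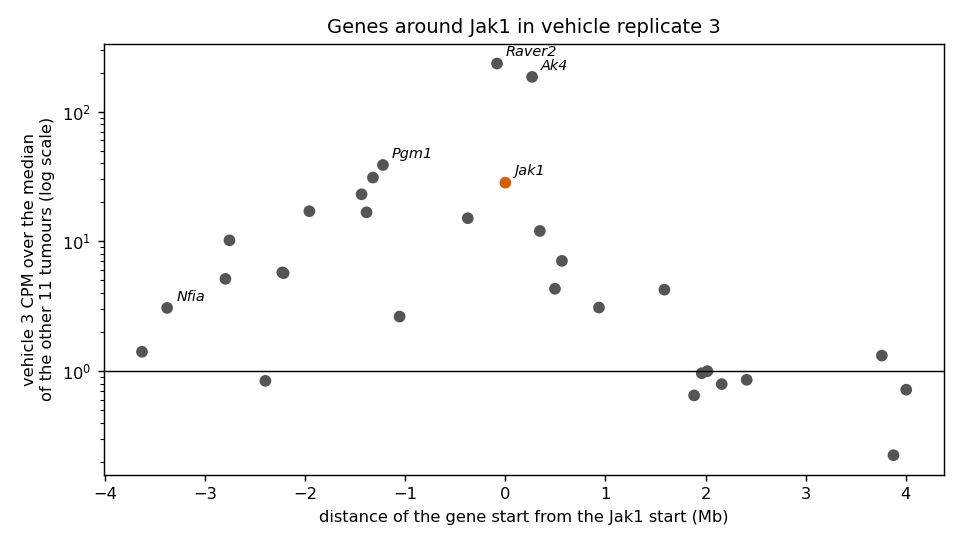
Each point is a tested gene within 4 Mb of Jak1. The x axis is the distance in Mb between gene starts, taken as the lower coordinate of each gene. The y axis, on a log scale, is the CPM in vehicle replicate 3 over the median of the other 11 tumours. Genes from 3.38 Mb before to 0.935 Mb after the Jak1 start lie above the line at 1 with 1 exception. Those at higher coordinates lie near or below it apart from 1 low-count gene.

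Levels of the members were compared with Ifng and with Ptprc, the gene of the pan-leukocyte antigen CD45, over the 12 tumours. Pearson correlations of log2 CPM were tested by permutation (100000 resamples, two-sided), adjusted over all 15650 genes for each of the 2. With Ifng 0 of 37 members passed, as did 0% of all genes, and 11 had an unadjusted permutation p under 0.05, beside 6.96% of all genes. The median r was 0.53 and the median Spearman rho 0.46. Of the 11, 4 were among the 27 type I and 7 among the 10 type II members. Without regressing replicates 2 and 4, the tumours farthest from the Ifng median, the median r fell to 0.04 for the type I and to 0.34 for the type II members, where it had been 0.50 and 0.61. Those 2 tumours also had the most Ifng counts (13 and 5). With little Ifng left to vary, the fall in r cannot decide whether a relation exists in the remaining tumours. Over the 8 libraries whose title lacks the suffix FFT, the median r was 0.69 for the type I and 0.78 for the type II members. All these values rest on an Ifng gene of 29 counts. Whether the 2 types differ in this was not tested.

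With Ptprc 32 of 37 members passed the adjusted permutation test, 24 of 27 type I and 8 of 10 type II, where 2.33% of all genes passed. All 37 had a positive r, as had 48% of all genes, and an unadjusted permutation p under 0.05, which 11.2% of all genes had. The median r was 0.88 and the median rho 0.80, with 3 members passing by rho, beside 0.562% of all genes. The 5 that did not pass by r were Ifi35, Dhx58, Eif2ak2, Gbp2 and Irf1. For Isg15 r was 0.86 (rho 0.76), for Irf7 0.92 (rho 0.76), for Cxcl9 0.94 (rho 0.86) and for Irf1 0.66 (rho 0.66). The adjusted permutation p for r was 0.0184, 0.00966, 0.00745 and 0.297, and for rho it was 0.196, 0.198, 0.0665 and 0.363. Without regressing replicate 4 and vehicle replicate 2, the tumours farthest from the Ptprc median, the median r was 0.82. Leaving out 1 tumour at a time, chosen after seeing the data, kept the median r between 0.82 and 0.92 but moved the number of members passing. It was 2 (Ifit2 and Cxcl9) without regressing replicate 4, where 0.249% of all genes passed, 16 without vehicle replicate 1 and 22 to 34 without each other tumour. At an unadjusted permutation p under 0.05 there were still 35 of 37 without regressing replicate 4, beside 8.54% of all genes. The median r was 0.87 over the 8 libraries whose title lacks the suffix FFT, a possible batch that the labels do not explain, and the other 4 are too few for a value. With values centred on group means it was 0.88.

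**Figure D5:**
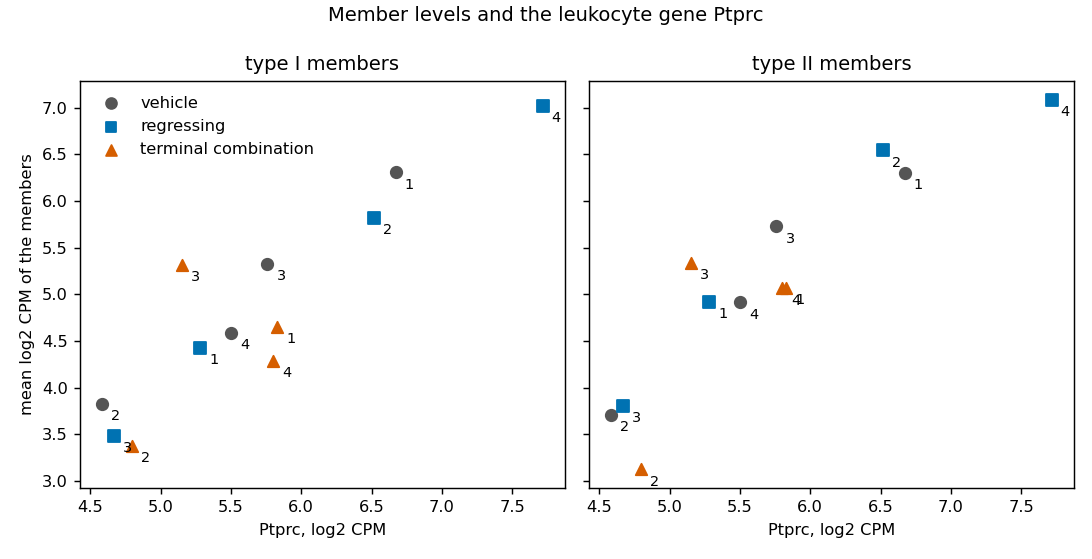
Each point is 1 tumour, numbered by replicate; the x axis is Ptprc in log2 CPM and the y axis the mean log2 CPM of the type I members (left) or the tested type II members (right). Tumours with more Ptprc mostly have higher levels of both types. The points run from vehicle replicate 2, regressing replicate 3 and terminal combination replicate 2 at the lower left to regressing replicate 4 at the upper right. Terminal combination replicate 3 departs from this, with less Ptprc than replicates 1 and 4 of its group but higher levels of both types.

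Ptprc itself stood at 102, 24.01, 54.2 and 45.3 CPM (vehicle), 38.9, 91.6, 25.5 and 210.3 CPM (regressing) and 56.8, 27.8, 35.6 and 55.7 CPM (terminal combination). The 4 pan-leukocyte markers, all detected in every library, summed to 375 to 900 CPM in vehicle, 343 to 1352 CPM in regressing and 354 to 603 CPM in terminal combination tumours. Summed T cell markers were 42.4 to 48.0, 20.5 to 505 and 20.7 to 74.8 CPM, and summed macrophage and monocyte markers (10 genes) 1290 to 4530, 1985 to 4342 and 1968 to 3179 CPM. All 10 T cell markers were higher in the first comparison and all 10 lower in the third. By edgeR 6, 0 and 9 of these 10 had an unadjusted p under 0.05 in the 3 comparisons, beside 12.7%, 5.94% and 7.02% of all genes. In these bulk samples fewer cells of a type and less RNA per cell cannot be told apart. With the mean of the 4 pan-leukocyte markers as a covariate, an alternative chosen after seeing the data, the type I median was -0.39, 0.01 and 0.42 in the 3 comparisons in the order above and the type II median -0.22, 0.03 and 0.22, and edgeR called 0 members. Markers of other cells moved with the groups as well, though edgeR called 0% of all genes after adjustment in each comparison. Summed B and plasma cell markers (8 genes) were 44.9 to 213.5 CPM in vehicle, 181.8 to 1665 CPM in regressing and 38.8 to 83.1 CPM in terminal combination tumours. All 6 tested had an unadjusted p under 0.05 by edgeR in the first and the third comparison, beside 12.7% and 7.02% of all genes. The 7 adipocyte markers summed to 12.9 to 117 CPM in vehicle, 175.8 to 1988 CPM in regressing and 80.6 to 538 CPM in terminal combination tumours. Regressing and vehicle tumours thus did not overlap, which held for 7.64% of all genes taken singly. The 5 red blood cell markers summed to 60.8 to 373 CPM, 86.2 to 2132 CPM and 382 to 1031 CPM. All 5 had an unadjusted p under 0.05 by edgeR in both comparisons with vehicle, beside 12.7% and 5.94% of all genes. The 10 skeletal muscle markers summed to 542 to 8512 CPM in vehicle, 3906 to 52905 CPM in regressing and 2633 to 32267 CPM in terminal combination tumours. With a muscle score as covariate the type I median of regressing against vehicle tumours was -0.15 and the type II median 0.24. The 10 Schwann lineage and nerve sheath markers summed to 401 to 642 CPM in vehicle, 149.7 to 242 CPM in regressing and 195.5 to 724 CPM in terminal combination tumours. Regressing and vehicle sums did not overlap, which held for 7.64% of all genes taken singly. Yet 5 of these markers were higher and 5 lower in that comparison. Their mean log2 CPM went the other way from the sums, at 2.02 in vehicle and 2.75 in regressing tumours, with overlapping ranges. By edgeR 9, 5 and 2 of the 10 had an unadjusted p under 0.05 in the 3 comparisons, beside 12.7%, 5.94% and 7.02% of all genes. The part of these cell types in the group differences was not tested further.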

How the data were processed

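RNA sequencing of 12 tumours was used, 4 in each of 3 groups read from the treatment and harvest labels. Per the labels, RNeasy mini columns gave the RNA and TruSeq Stranded mRNA reagents the libraries. Each deposited table gives raw read counts, as whole numbers, for 54532 Ensembl identifiers. The submitters' processing notes name HISAT2 2.2.1, Salmon, DESeq2 1.24.0 and, as genome builds, mm10 and GRCm38.p6. The counting tool, its strand setting and the annotation release are not given in the sources used here, so overlapping genes and near-identical copies may share reads. Symbols were taken from GENCODE M21, in which 54495 identifiers were found.

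Totals ran from 13194699 to 22639625 counts. The limit set by a count of 0 was taken as 3 counts, which covers counting error only. The filter filterByExpr (at least 10 counts in enough libraries and 15 in total) left 15650 genes, and CPM are on library sizes scaled by TMM. The main test was edgeR 4.0.16 (quasi-likelihood, all 12 libraries, 1 coefficient per group) in R 4.3.3, with Benjamini-Hochberg adjustment over all genes and a threshold of 0.05. It was tested on simulated data. Levels are means of log2 CPM with a prior count of 2. Correlations were computed in Python 3.11.15 with scipy 1.17.1 and 100000 permutations, and their p-values were adjusted over all genes, not over the members as first planned. Those with Ptprc, first planned as a description, were tested in the same way. Figures were drawn with matplotlib 3.10.9. Alternatives were DESeq2 1.42.0, limma-voom (limma 3.58.1), other scaling, no filter, fits with the 2 groups compared alone, muscle and leukocyte scores as covariates, the title suffix FFT as covariate or its libraries left out, and each library left out in turn.

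The members, gene lists and markers were chosen with earlier results of these data known. The genes named are 8 fixed members (Isg15, Irf7, Ifit1, Stat2, Irf1, Cxcl9, Cxcl10 and Gbp2), in each comparison the 4 type I and 3 type II members with the smallest edgeR p, a fixed set of ligands, receptors and kinases, and up to 4 genes with the smallest p from each other pathway list. Genes named outside this rule were chosen after their values were seen. Some items are not reported here.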

Additional observations from a re-analysis of the deposited data

Results flagged for a closer look

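A single tumour far from the other 3 of its group was looked for in 153 sets of 4 tumours, made of each member, the named pathway genes and the 2 levels in each group, by comparing its gap to the nearest tumour with the range of the group. Chance gives such a tumour in about 1 of 20 sets, and 7 of 153 had one. Among the members, Ifi35 in vehicle replicate 2 was low at 5.03 log2 CPM, where the other vehicle tumours lay between 5.65 and 5.75. Gbp2 in terminal combination replicate 2 was low at 4.86 (others 6.79 to 7.07), and the type II level of the same tumour was low at 3.13 (others 5.07 to 5.34). Jak1 in vehicle replicate 3 was high at 12.55 (others 7.61 to 8.11), the tumour in which the neighbouring genes were high as well. Jak2 in vehicle replicate 4 was low at 5.02 (others 5.43 to 5.48). Socs1 in regressing replicate 4, the tumour highest for 35 of 37 members, was high at 3.63 (others 2.71 to 2.84). Ifng in vehicle replicate 3 was at -1.93, where the other vehicle tumours had no count and stood at -3.18, a difference of a few reads.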

How the results depend on the processing

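No member was called under any alternative run. Over all genes, DESeq2 called 477, 14 and 51 in regressing against vehicle, terminal combination against vehicle and terminal combination against regressing tumours, where edgeR called 0, and leaving out 1 library gave 0 to 1 calls in the last, the 1 being without terminal combination replicate 4. Directions depended on single libraries and on covariates. In regressing against vehicle tumours, leaving out 1 library moved Irf9 between -0.21 and 0.79 and Ifit3 between -0.22 and 1.69, the negative values being without regressing replicate 4. In terminal combination against vehicle tumours Cxcl10 ran from -1.43 to 0.17, the positive value being without vehicle replicate 1, and it was 0.17 without both regressing replicate 4 and vehicle replicate 1. With the leukocyte covariate, chosen after seeing the data, Rtp4 (-0.10), Irf9 (-0.11), Ifit3 (-0.26) and Cxcl9 (-0.35) turned in the first comparison, Cxcl10 (0.21) and Iigp1 (0.0072) in the second, and Ifit3 (0.38), Irf7 (0.60) and Cxcl9 (0.010) in the third, where the type I median was 0.42. The cause was not tested. By limma-voom the type I median of regressing against vehicle tumours was 0.03, with 15 members higher and 12 lower. Without both regressing replicate 4 and vehicle replicate 1 the type I medians of the 3 comparisons were 0.18, -0.14 and -0.41, and over the 8 libraries without FFT in the title they were 1.06, -0.45 and -1.50. The suffix stood on vehicle replicates 1 and 2, regressing replicate 1 and terminal combination replicate 1. Only replicates 3 and 4 of the vehicle group were thus left in that fit. With the median over members, type II minus type I was 0.38 in vehicle replicate 1, -0.56 in vehicle replicate 2, 0.46 in regressing replicate 4 and 0.50 in terminal combination replicate 3. The number of members passing the correlation with Ptprc was 2 to 34 with 1 tumour left out, against 32. No paired analysis was possible because the labels do not say what the numbers in the sample titles stand for and no 2 groups share more than 1 of them. Depth limits the ligands, most of which had no read.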

Other observations

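A few members departed from the common order of tumours, and they are named after their values were seen. Dhx58 was at 46.0 CPM in vehicle replicate 2, the second highest vehicle tumour, although that tumour was the lowest of its group for 33 of 37 members, and Dhx58 was lowest of all in terminal combination replicate 4 at 10.4 CPM. Its r with Ptprc was the lowest of the members at 0.58. Dhx58 overlaps a gene on the other strand, Dhx58os, with 860 counts beside the 7082 of Dhx58, and how reads were shared was not tested. Gbp4 was at 12.9 CPM in terminal combination replicate 1 and at 1.97 to 3.54 CPM in the rest of that group, whereas Gbp3 and Gbp5 were highest there in replicate 4 at 70.9 and 21.3 CPM. Ifnz, a type I interferon gene near Ifnb1, had 17 counts, with at least 1 in each of the 4 terminal combination libraries (0.307, 0.357, 0.147 and 0.057 CPM), and outside them a value above 0 only in regressing replicate 1 (0.0637 CPM), at levels that the depth does not separate from a few stray reads. Trex1, which degrades cytosolic DNA, was listed at 0 in every library. How reads were counted is not given, so this 0 does not show that the gene was silent.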
